A study of Rattus norvegicus with 6 samples.

Results

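miR-126 is a vertebrate microRNA (miRNA) whose precursor gives 2 mature strands, named after the end of the precursor from which they are cut: miR-126a-3p (rno-miR-126a-3p in the table) and miR-126a-5p (rno-miR-126a-5p) in the rat. Both were found by name among the deposited miRNA sequences of rat serum exosomes, so the 2 arms make up 2 of the 867 listed rows. Exosomes are vesicles bounded by a membrane, shed by cells into blood and other fluids with RNA inside. NXT-Exo were circulating exosomes from male Sprague-Dawley rats on a normal diet that received 1000 mg/kg/d of Naoxintong Capsule (NXT, a polyherbal preparation used for vascular disease) by gavage, and Ctl-Exo were those from rats of the same strain, sex and diet that received 5 mL/kg/d of saline. The rats were 6 to 8 weeks old, with 10 in each group. The comparison used 5 NXT-Exo libraries and 1 Ctl-Exo library, replicate 5. Columns named for Ctl-Exo 1 to 4 also stand in the table and were not used, as no sample label analysed here matched them, so every position inside or outside a range rests on this single control. The sample titles give 7 days of dosing throughout, while in the treatment field the dosing time runs from 7 days (NXT-Exo 1) by single days up to 11 days (NXT-Exo 5), and is 11 days for the Ctl-Exo library. The labels describe ultracentrifugation of 110 mL of serum in total, with 10 mL of blood drawn per rat, and do not say whether a library is 1 rat or a pool.

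In blood vessels, miR-126 is best known as a miRNA of endothelial cells. Its gene lies within *Egfl7*, which encodes an endothelial secreted protein, and miR-126-3p is known to dampen SPRED1 and PIK3R2, both brakes on VEGF signaling, as well as the adhesion molecule VCAM-1. miR-126-5p is known to act on DLK1 in endothelial repair. Platelets and blood progenitor cells also carry miR-126, and exosomes in serum come from many cell types.

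The listed sequences of the 2 arms are shown first because everything counted below rests on reads assigned to them. The capitals mark the seed, bases 2 to 8, which pairs with target mRNAs. The coordinates are those of RefSeq on GRCr8, whose sequences were identical to the listed ones, whereas the authors' processing used Rnor_6.0.
miR-126a-3p, 22 bases, chr3:29813219-29813240, plus strand: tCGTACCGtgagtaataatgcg
miR-126a-5p, 21 bases, chr3:29813182-29813202, plus strand: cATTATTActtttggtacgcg
The 2 seeds differ, so the arms pair with different target sites. Each seed was found in 2 listed sequences, the arm itself and 1 longer sequence named without the rat prefix. The genomic run that holds both arms, chr3:29813182-29813240 on the plus strand of GRCr8, is shown with the arms in capitals and the 16 bases between them in lower case.
miR-126a arms and loop: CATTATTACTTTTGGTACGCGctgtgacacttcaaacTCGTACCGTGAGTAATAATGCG
In the predicted fold of this run, 18 of the 21 bases of the 5p arm paired with the 3p arm. In the RefSeq gene list, this locus lies within the spans of *Egfl7* and of the miRNA entries *Mir126a* and *Mir126b*. The symbol given there for both arms is *Mir126b*. miR-126b, a product of the opposite strand at the same place (chr3:29813177-29813198), overlaps 17 bases of the 5p arm. Neither this name nor its RefSeq sequence was among the listed miRNAs.

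The listed reads of the 6 libraries summed to between 1168686 (NXT-Exo 4) and 3781718 (NXT-Exo 5), and Ctl-Exo 5 had 1890463. Counts were scaled to CPM, the read count relative to library size, by the TMM method of edgeR, with factors of 0.932 to 1.095, so that 1 read was worth 0.261 to 0.782 CPM. With 1 Ctl-Exo library, no p-value could be given, and each difference was set beside the standard deviation (SD) of the 5 NXT-Exo libraries. Nothing in the labels says that the NXT-Exo libraries came from separate animals, so this SD may be technical. The 95% Wilson intervals cover counting error only.

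miR-126a-3p, the arm that restrains SPRED1 and PIK3R2, was at nearly the same level in both groups. Its reads numbered 2804, 2688, 2018, 1320 and 3564 in NXT-Exo 1 to 5 and 1620 in Ctl-Exo 5. On the CPM scale, the levels were 935, 810, 907, 1032 and 930 in NXT-Exo 1 to 5, and 882 in Ctl-Exo 5. Ctl-Exo 5 thus lay inside the NXT-Exo range, above NXT-Exo 2 and below the other 4. The NXT-Exo mean was 923 ± 79.3 CPM (SD, n = 5), 1.05 times the level of Ctl-Exo 5. The log2 difference, taken as log2(mean CPM + 1) of NXT-Exo minus that of Ctl-Exo 5, was 0.06, smaller than the SD of 0.12 between NXT-Exo libraries. miR-126a-3p ranked 66th to 74th among the listed miRNAs in each library, with 0.0781% to 0.113% of the listed reads.

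miR-126a-5p, the arm known from endothelial repair, showed the same picture at a lower level. Its reads numbered 1074, 1142, 812, 596 and 1515 in NXT-Exo 1 to 5 and 680 in Ctl-Exo 5. The levels were 358, 344, 365, 466 and 395 CPM in NXT-Exo 1 to 5, and 370 CPM in Ctl-Exo 5. Ctl-Exo 5 was in the middle of the range, above 3 NXT-Exo libraries and below 2. The NXT-Exo mean of 386 ± 48.6 CPM (SD, n = 5) was 1.04 times that of Ctl-Exo 5, and the log2 difference was 0.06 against an SD of 0.17. NXT-Exo 4 held the highest level of both arms, and without it the log2 difference was 0.02 for miR-126a-3p and -0.02 for miR-126a-5p. This library had the fewest reads. Its TMM factor, 1.095, was the highest of the 6 and lowers its CPM most, so it had to be highest without this factor too. As a share of its listed reads, it had 0.113% for miR-126a-3p and 0.0510% for miR-126a-5p. The next library had 0.0964% and 0.0401%. The 5p arm ranked 94th to 109th in the libraries.

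**Figure D1:**
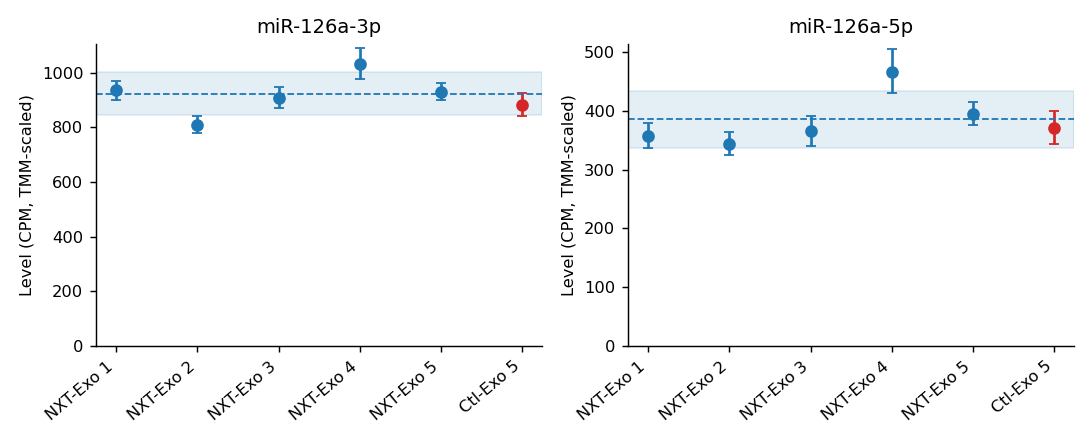
Level of miR-126a-3p (left) and miR-126a-5p (right) in CPM, axes from 0, for the 5 NXT-Exo libraries (blue) and Ctl-Exo 5 (red). Bars are 95% Wilson intervals of the reads, and the dashed line and band are the NXT-Exo mean ± SD. Ctl-Exo 5 lies inside the band for both arms, at 882 and 370 CPM, and NXT-Exo 4 is highest in both, at 1032 and 466 CPM.

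Across the whole table, Ctl-Exo 5 lay outside the NXT-Exo range for 262 of the 865 miRNAs with a read (30.3%), and for 99 of these the groups were also at least 2-fold apart (11.4%). When only the 467 miRNAs that averaged 10 reads or more were considered, it lay outside for 175 (37.5%). Neither miR-126a arm was among them. The median log2 difference over these 467 miRNAs was 0.03, and the median size of the difference, without its sign, was 0.28. The differences of the 2 arms were smaller in size than those of most. Of the 467, 15.0% were closer to 0 than miR-126a-3p and 13.1% closer than miR-126a-5p. Under other scalings and settings, the difference ran from 0.02 to 0.12 for miR-126a-3p and from -0.02 to 0.12 for miR-126a-5p. These positions are thus only rough. Many of the 467 also had fewer reads than the arms, and so more counting error in their difference.

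With TMM scaling, the level of the miR-126a arms also varied little between the NXT-Exo libraries. Of the 467 miRNAs, 26 had a smaller SD of log2 level than miR-126a-3p (0.12) and 80 had a smaller one than miR-126a-5p (0.17). The median was 0.32. Scaled to listed reads without the TMM factors, the SD was 0.20 for miR-126a-3p and 0.25 for miR-126a-5p, and their positions there were not computed. Counting error adds more to this SD for miRNAs with few reads, and the arms ranked 69th and 101st of the 467 in mean CPM. The part of depth in these positions was not tested. In linear terms, the SD was 8.59% of the mean for miR-126a-3p and 12.6% for miR-126a-5p. Counting error alone would give 2.13% and 3.28%, so the libraries differed by more than the counting of reads. In the order of levels, the intervals of every pair of neighboring libraries overlapped except at the top, where NXT-Exo 4 stood above the next library for both arms. The highest NXT-Exo library was 1.27 times the lowest for the 3p arm and 1.35 times for the 5p arm.

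The ratio of the arms is independent of library scaling, since both are counted in the same library. The 3p arm had 2.61, 2.35, 2.49, 2.21 and 2.35 times the reads of the 5p arm in NXT-Exo 1 to 5, and 2.38 times in Ctl-Exo 5. The ratio of Ctl-Exo 5 was again inside the NXT-Exo range, close to the mean of 2.40 ± 0.150 (SD, n = 5). On the log2 scale, the NXT-Exo mean minus Ctl-Exo 5 was 0.01, with an SD of 0.09. Expressed as a share of the reads of both arms, the 5p arm took 29.4% ± 1.29 (SD, n = 5) in NXT-Exo and 29.6% in Ctl-Exo 5 (95% Wilson interval 27.7% to 31.5%). The NXT-Exo shares ran from 27.7% in NXT-Exo 1, just under the lower end of that interval, to 31.1% in NXT-Exo 4, which was inside it. The chi-square of the arm reads over the 6 libraries was 1.92 per degree of freedom, where counting error alone would give about 1.

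**Figure D2:**
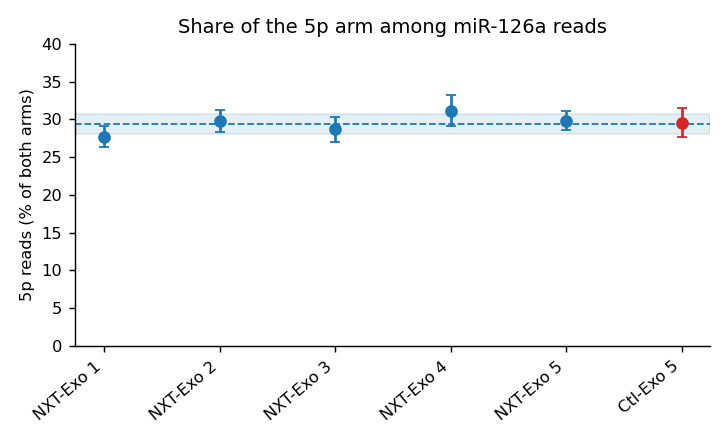
Share of the 5p arm in the reads of both miR-126a arms, in percent, for the 5 NXT-Exo libraries (blue) and Ctl-Exo 5 (red). Bars are 95% Wilson intervals, and the dashed line and band are the NXT-Exo mean ± SD. The 6 shares lie between 27.7% and 31.1%, and Ctl-Exo 5 at 29.6% is near the mean of 29.4%.

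To place this ratio, all rat-named miRNAs with both a 3p and a 5p row were examined. Of these pairs, 69 had a mean of at least 10 reads per arm. The SD of the log2 arm ratio over the NXT-Exo libraries was 0.09 for miR-126a, and 1 of the 69 pairs, miR-339, had a smaller one. The median was 0.42. Counting error in a ratio is larger when the rarer arm has few reads, and miR-126a had many reads of both arms. Relative to the SD that counting error would give, the observed SD was 1.59 times as large for miR-126a against a median of 2.15 times, and 11 pairs had a lower value. The arm ratio of Ctl-Exo 5 was outside the NXT-Exo range for 22 of the 69 pairs (31.9%), and not for miR-126a. Only 1 of the 69 pairs had a smaller difference in log2 ratio between the groups, where the median size was 0.27. The difference for miR-126a, 0.01, was below the SD of 0.06 that counting error would give its log2 ratio per NXT-Exo library. This rank is thus not resolved.

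The 2 arms of miR-126a were also more even than those of most pairs. The size of its log2 ratio was 1.26 against a median of 3.00, and 16 of the 69 pairs were more even. The 3p arm was the more abundant in 26 pairs, as in miR-126a, and the 5p arm in 43. Of the 5 pairs nearest to miR-126a in the summed level of both arms, miR-425 was near parity, with a log2 ratio of -0.07 in NXT-Exo. miR-223, a miRNA of myeloid cells and platelets, was at the other end with a log2 ratio of 6.31. miR-339 had an NXT-Exo log2 ratio of -1.74, miR-199a of 2.53 and miR-106b of 4.58. In 3 of these 5 pairs, miR-339, miR-106b and miR-223, the ratio of Ctl-Exo 5 was outside the NXT-Exo range. Over all 69 pairs, this was so for 22 (31.9%), and 5 pairs are too few to set against that share.

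**Figure D3:**
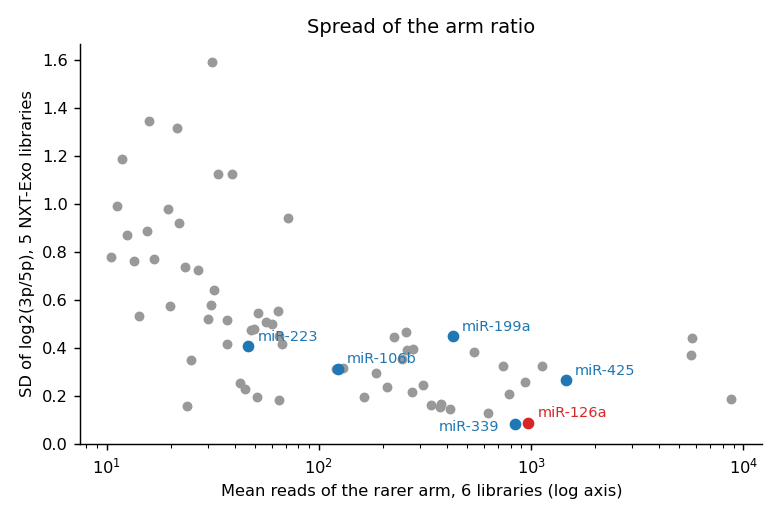
SD of log2(3p/5p) over the 5 NXT-Exo libraries against the mean reads of the rarer arm over the 6 libraries (log axis), for 69 arm pairs. miR-126a is in red, at an SD of 0.09, the 5 pairs nearest to it in level are in blue, and the others are in gray. Pairs with few reads of the rarer arm spread more, and miR-339 is the pair below miR-126a.

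Besides the 2 arms, the table lists a longer sequence for each of them, shown because their reads could belong to the same miRNA. The capitals mark the bases that do not match the rat reference run.
miR-126-y, 23 bases: tcgtaccgtgagtaataatgcAA
miR-126-x, 23 bases: cattattacttttggtacgcgAA
Both share their first 21 bases with an arm, miR-126-y with miR-126a-3p and miR-126-x with miR-126a-5p. Counted from 1 at the 5′ end, the differences from the reference run are G22A and T23A in miR-126-y, and C22A and T23A in miR-126-x. The 2 sequences were rare, with 226 and 19 reads over the 6 libraries against 19833 reads of the 2 arms.

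miR-126-y, the longer form of the 3p arm, was lower in Ctl-Exo 5 than in every NXT-Exo library. Its reads numbered 45, 48, 31, 23 and 61 in NXT-Exo 1 to 5 and 18 in Ctl-Exo 5. The NXT-Exo mean was 15.5 ± 1.59 CPM (SD, n = 5), with a range of 13.9 to 18.0 CPM, and Ctl-Exo 5 was at 9.80 CPM (6.20 to 15.5 CPM by the Wilson interval). The SD of 0.14 was smaller than the log2 difference, 0.61, but 3 of the 5 NXT-Exo levels (13.9, 14.5 and 15.0 CPM) lay inside the interval of Ctl-Exo 5. In linear terms, this SD was 10.3% of the mean, below the 16.4% that counting error alone would give, so it understates the spread. Of the reads of miR-126-y and miR-126a-3p together, miR-126-y made up 1.65% ± 0.0995 (SD, n = 5) in NXT-Exo. In Ctl-Exo 5, it made up 1.10% (95% Wilson interval 0.696% to 1.73%). A position of Ctl-Exo 5 below the whole NXT-Exo range was found for 15.0% of the 865 miRNAs. miR-126-x had 7, 1, 0, 3 and 7 reads in NXT-Exo 1 to 5 and 1 read in Ctl-Exo 5, too few for a comparison.

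The miRNAs whose levels followed miR-126a most closely over the 6 libraries were sought among the 467, by the root mean square distance between log2 profiles after each was centered on its own mean. This distance favors miRNAs that vary little, and the 6 libraries share their scaling. For miR-126a-3p, the nearest of 466 was its partner arm, miR-126a-5p, at 0.07, where the median distance was 0.33. It was followed by miR-22-3p, miR-29a-3p and miR-152-3p at 0.08 to 0.09, and then by miR-27-y, a sequence listed without the rat prefix, at 0.09. For miR-126a-5p, miR-152-3p was nearest at 0.02, followed by miR-29a-3p (0.06), miR-27-y (0.07), miR-126a-3p (0.07) and miR-27b-3p (0.08). The levels of miR-152-3p were 1479, 1416, 1511, 1970 and 1692 CPM in NXT-Exo 1 to 5 and 1514 CPM in Ctl-Exo 5, with NXT-Exo 4 highest and NXT-Exo 2 lowest, as for miR-126a-5p.

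Other miRNAs of vessels and blood cells were set beside miR-126a, since exosomes in serum come from many cell types. All 19 miRNAs of an endothelial and vascular list had reads, of which 9 were higher and 10 lower in NXT-Exo, with a median log2 difference of -0.04. Ctl-Exo 5 lay outside the NXT-Exo range for 5 of the 19, against 30.3% of all miRNAs. The most abundant were miR-92a-3p, a member of the miR-17-92 cluster that restrains vessel growth, at 56805 ± 9129 CPM (SD, n = 5) against 54461 CPM, and miR-23a-3p and miR-27b-3p, from clusters active in angiogenesis. miR-23a-3p was 34790 ± 6041 CPM (SD, n = 5) against 38069 CPM, and miR-27b-3p was 13935 ± 1638 CPM (SD, n = 5) against 14375 CPM. These miRNAs were far more abundant than miR-126a-3p, and for none of the 3 was Ctl-Exo 5 outside the NXT-Exo range.

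The one miRNA of this list that was at least 2-fold apart, miR-31a-5p, is named here after its values were seen. It was 11.0, 21.1, 22.5, 28.9 and 20.6 CPM in NXT-Exo 1 to 5 and 6.53 CPM in Ctl-Exo 5, with a log2 difference of 1.53 and an SD of 0.49. All 5 NXT-Exo libraries were above Ctl-Exo 5, although the level was far below that of miR-126a. With 0.544 CPM per read in Ctl-Exo 5, the level of miR-31a-5p there rests on few reads. Ctl-Exo 5 was below all NXT-Exo libraries for 15.0% of the 865 miRNAs. It was outside their range with the groups at least 2-fold apart for 11.4%.

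Among the lists for other cell types, 7 of 8 platelet miRNAs had reads. Of these, 1 had a higher and 6 a lower mean in NXT-Exo, with a median log2 difference of -0.17. Over all 865 miRNAs, the mean was lower in NXT-Exo for 337, and for 214 of the 467 that averaged 10 reads or more. Their summed level, 278114 CPM in Ctl-Exo 5, was 182420 to 261040 CPM in the NXT-Exo libraries, most of it from miR-191a-5p, which many other cells also express. Their most abundant members, miR-191a-5p, miR-26a-5p and miR-328a-3p, had log2 differences of -0.30, -0.08 and -0.19. miR-223-3p, which had the largest difference of the list and was picked for display after its values were seen, was 1460 ± 228 CPM (SD, n = 5) against 1948 CPM. The 5 white blood cell miRNAs had negative differences, with a median of -0.24, but for 3 of them Ctl-Exo 5 was inside the NXT-Exo range. The most abundant was miR-142-5p, at 17700 ± 1290 CPM (SD, n = 5) against 20887 CPM. The log2 difference was -0.24 for miR-146a-5p, which restrains inflammatory signaling, and -0.06 for miR-150-5p of lymphocytes. Ctl-Exo 5 was above the whole NXT-Exo range for 2 miRNAs of either list, a position found for 15.3% of all miRNAs. For miR-191a-5p of the platelet list this was a near tie, at 198538 CPM against 198091 CPM in the highest NXT-Exo library. The 4 smooth muscle miRNAs, miR-143 and miR-145 with both arms, also had negative differences, with a median of -0.31. Ctl-Exo 5 was outside the NXT-Exo range for 2 of them, miR-143-5p and miR-145-3p, against 30.3% of all 865 miRNAs. miR-143-3p was 9628 ± 1983 CPM (SD, n = 5) against 11639 CPM, and the log2 difference was -0.31 for miR-145-5p and -0.32 for miR-145-3p.

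The red blood cell miRNAs, which rise with hemolysis, had a median log2 difference of 0.03 over 5 members, and the summed level of Ctl-Exo 5, 213979 CPM, was inside the NXT-Exo range of 160226 to 263329 CPM. Most of it came from miR-486, with a log2 difference of 0.03, followed by miR-16-5p (-0.26) and miR-451-5p (0.05). The log2 ratio of miR-451-5p to miR-23a-3p reads, a usual index of hemolysis, was -4.76, -4.02, -3.68, -3.25 and -4.06 in NXT-Exo 1 to 5 and -4.11 in Ctl-Exo 5. It was highest in NXT-Exo 4, the library with the highest level of both miR-126a arms, but lowest in NXT-Exo 1 rather than in NXT-Exo 2, where both arms were lowest. The part of these cell types in the miR-126a levels was not tested.

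**Figure D4:**
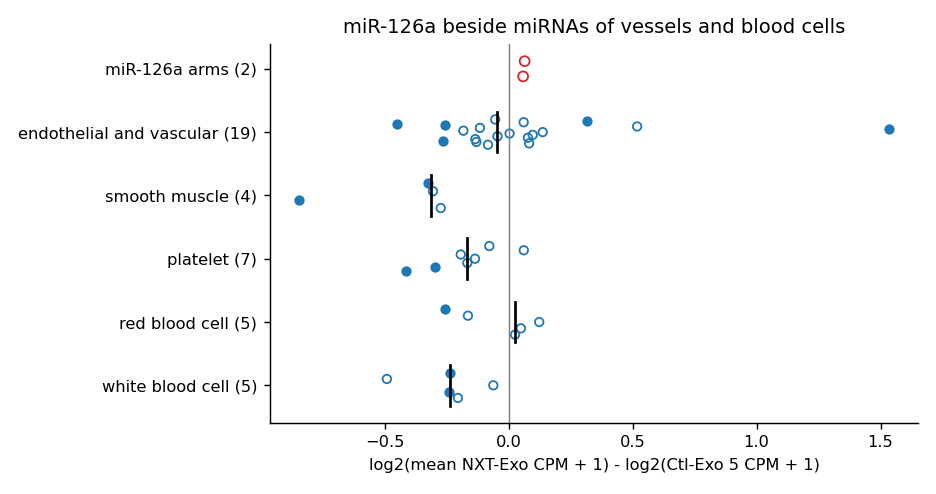
Log2 difference between NXT-Exo and Ctl-Exo 5 for the miR-126a arms (red) and for the miRNAs of 5 lists (blue), with the number of miRNAs measured in parentheses. Filled points are miRNAs with Ctl-Exo 5 outside the NXT-Exo range, open points are the others, and black lines are list medians. Both arms are open points at 0.06, and the list medians run from -0.31 to 0.03.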

How the data were processed

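Small RNA libraries (TruSeq Small RNA, HiSeq) were made from serum exosomes. Per the labels, the authors filtered the reads with ACGT101-miR (adapter dimers, low complexity, other RNA classes, repeats) and used Rnor_6.0, and the deposited values are raw counts per miRNA sequence. The aligner and the miRNA database release are not given in the sources used here. The authors also deposited TPM, the count times a constant per library, with 0.01 for 0 reads and no division by length. Another 8 columns, counts and TPM named for Ctl-Exo 1 to 4, were not used because they matched none of the sample labels analysed here.

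Counts of the 865 miRNAs with a read were scaled by TMM (edgeR 4.0.16 under R 4.3.3) and compared with a pseudocount of 1 CPM in Python 3.11.15 (scipy 1.17.1, pandas 2.3.3, numpy 2.4.6, matplotlib 3.10.9), after the comparison had been tested on simulated data. The precursor run is the reverse complement of the RefSeq hairpin of the opposite strand, folded with RNAfold (ViennaRNA 2.7.2). Where an arm had 0 reads in a library, 0.5 reads were added to both arms of that pair. The 2-fold threshold is that of the study. Alternatives were scaling to listed reads, DESeq2 1.42.0 size factors, a minimum mean of 10 reads, pseudocounts of 0.1 and 10 CPM, the median, the mean of log2 values, each NXT-Exo library left out, the deposited TPM, and the longer miR-126 sequences added. For the arm ratio, 0.5 reads were added or the reads were summed.

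The miRNAs named are both arms, the 5 nearest in profile to each, the 3 most abundant of each list, and the 5 arm pairs nearest in summed level. miR-126-y, miR-126-x, miR-31a-5p, miR-223-3p, and the miR-451-5p to miR-23a-3p ratio were added after values were seen. The members and lists were chosen with earlier results of these data known.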

Additional observations from a re-analysis of the deposited data

How the results depend on the processing

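No paired analysis was possible because, with the columns named for Ctl-Exo 1 to 4 not used here, replicate 5 alone occurs in both groups. For both miR-126a arms and their ratio, each alternative changed the log2 difference by under 1 SD of NXT-Exo, in 14 settings for each arm and 10 for the ratio. With single NXT-Exo libraries left out, the difference was 0.02 to 0.11 for miR-126a-3p, -0.02 to 0.10 for miR-126a-5p and -0.02 to 0.04 for the log2 arm ratio. Without NXT-Exo 2, the lowest library, Ctl-Exo 5 fell below all the others for miR-126a-3p, with a difference of 0.11. The deposited TPM gave 0.12 for each arm, and the median of NXT-Exo gave -0.02 for miR-126a-5p and for the ratio. The difference was positive in all 14 settings for miR-126a-3p, while its sign changed for miR-126a-5p and the arm ratio. Adding miR-126-y to miR-126a-3p gave 0.07. The SD of log2 level between NXT-Exo libraries also depended on the scaling. For miR-126a-3p, it was 0.12 with DESeq2 size factors and 0.22 with the deposited TPM. For miR-126a-5p, it was 0.17 and 0.26.

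The count of 2-fold differences was 99 of 865 miRNAs (11.4%), of which 46.5% were higher in NXT-Exo. With a minimum mean of 10 reads, the count fell to 31 of 467 (6.64%), of which 71.0% were higher. With a pseudocount of 10 CPM, it fell to 4 of 865 (0.462%), of which 75.0% were higher. It was 101 to 121 without each NXT-Exo library in turn. Of the arm pairs, 12 of 39 rather than 22 of 69 had Ctl-Exo 5 outside the range with a mean of at least 50 reads per arm. For miR-126-y, whose alternatives were chosen after its values were seen, the difference of 0.61 became 0.36 with a pseudocount of 10 CPM. Depth limits miR-126-y, with 18 reads in Ctl-Exo 5, far more than the arms.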
